A study of Mus musculus with 3 samples.

Results

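The 78 genes described here encode the proteins of the mitochondrial ribosome (mitoribosome), and they were taken as every gene of the table whose symbol begins with Mrpl or Mrps followed by a digit, 78 of 17121 genes. RNA was sequenced in 3 samples of CD8+ T cells that had been isolated from the spleens and lymph nodes of wild-type mice and cultured for 3 days with antibodies against CD3 and CD28 (α-CD3/28) at 1 µg/ml, which act on the T cell receptor and on a co-stimulatory receptor. Young TCR cells came from mice 6 weeks old and had these antibodies alone. Young TRM cells, also from mice 6 weeks old, were also given 20 ng/ml IL-15 and 5 ng/ml TGF-beta, which push T cells toward the tissue-resident memory (TRM) state. Aged TRM cells had the same antibodies and cytokines and came from mice 18 months old. The sources used here do not give strain, sex, the number of mice or any pooling, and an aged sample with antibodies alone was not analysed here. Each group was 1 sample, deposited as 2 numbered columns. The labels do not explain the numbers, and the columns are read here as repeated measurements of the same sample, so no difference between groups could be tested against the spread between mice or cultures, and no p-value is given.

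Mitochondria keep a small genome of their own, whose protein-coding genes specify core subunits of the respiratory chain and of ATP synthase. The mitoribosome, which translates their messenger RNAs, has a small subunit that reads the message and a large subunit that joins the amino acids. Its RNAs come from mitochondrial DNA, but all of its proteins are encoded in the nucleus, made in the cytosol and imported. Activated T cells are known to enlarge their mitochondria as they begin to divide. Of the 78 genes, 51 encode proteins of the large subunit (among them Mrps30 and Mrps18a, despite their symbols) and 26 proteins of the small subunit. Mrps36 was kept because the symbol rule takes it, but its protein is known as a subunit of the 2-oxoglutarate dehydrogenase complex. By descent, 45 of the 78 have a counterpart in bacterial ribosomes and 31 were counted as specific to mitochondria, with Mrps36 and Mrpl55 in neither count. The 31 include Mrps18a and Mrps18b, which are related to bacterial S18 but hold other places in the particle.

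The samples held 39915663 (young TCR), 36021887 (young TRM) and 40385477 reads (aged TRM), and their columns between 16084855 and 20245228. Levels are given in CPM, reads scaled to a common library size, with the trimmed-mean (TMM) method applied between samples. Of the 17121 genes, 11777 reached 1 CPM in at least 1 of the 3 samples and were compared. All 5 CD8 T cell markers were present, at a summed 2092, 3464 and 3214 CPM in young TCR, young TRM and aged TRM. The 3 CD4 T cell markers summed to 12.8, 46.2 and 15.9 CPM, where Cd4 itself had 10.5, 12.4 and 11.6 CPM and Foxp3, a regulatory T cell factor, had 1.95, 33.6 and 3.71 CPM. The 4 B cell markers summed to 35.9, 15.9 and 19.9 CPM, the 4 myeloid markers to 3.75, 3.07 and 1.77 CPM and the 3 markers of NK and innate lymphoid cells to 2.22, 10.8 and 8.29 CPM. Red cell markers summed to 1.23, 3.32 and 7.67 CPM, and the 2 stromal markers, nearly all of it Pecam1, to 78.2, 71.5 and 54.3 CPM. Adgre1, listed at 0 in young TRM, was the only marker at 0 in any sample. The part of other cells in the results that follow was not tested, and in such bulk samples fewer cells of a type and less RNA per cell cannot be told apart.

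All 78 genes passed the 1 CPM filter, each in all 3 samples, and the lowest value of any of them was 8.86 CPM (Mrps28 in young TRM). Together they held 0.356%, 0.285% and 0.319% of the reads of young TCR, young TRM and aged TRM. In TPM, the deposited level per transcript length, which allows genes to be compared with each other, the median gene in young TCR stood at 71.3 and the middle 50% of the genes between 54.7 and 99.8. Of the 78, 60 lay within 2-fold of that median on either side, a share that was not counted for other genes. The ends of the range were 21.7-fold apart.

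**Figure D1:**
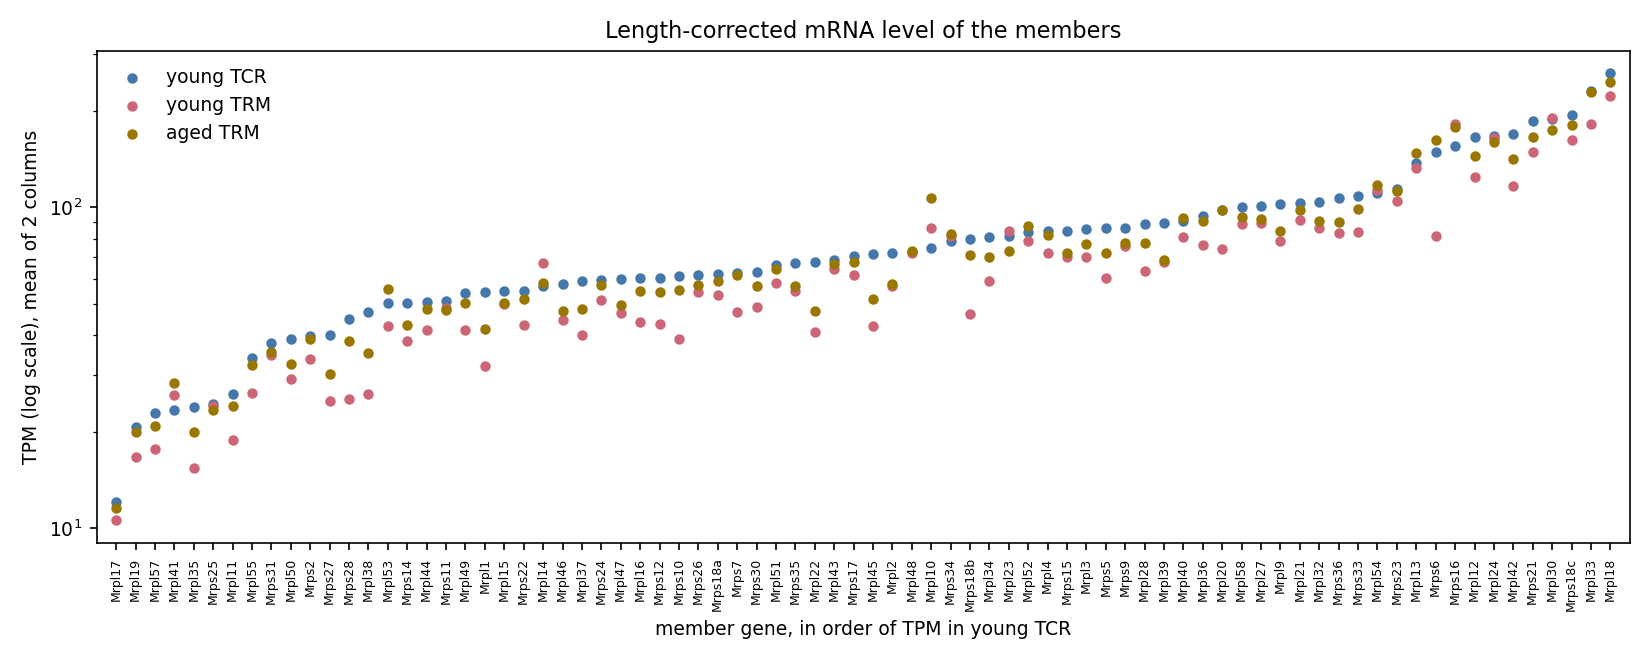
Level per transcript length (TPM, log scale, mean of the 2 columns of a sample) of each of the 78 mitoribosomal genes in young TCR, young TRM and aged TRM, with genes ordered by young TCR. Of the 78 genes, 60 lie within 2-fold of the median of 71.3 TPM in young TCR, and for most the young TRM point is the lowest of the 3.

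Mrpl18, whose protein belongs to the central protuberance of the large subunit, had the highest level, with 262, 223 and 246 TPM in young TCR, young TRM and aged TRM. Next came Mrpl33 with 230.4, 182 and 229 TPM and the small-subunit gene Mrps18c with 194, 163 and 181 TPM. Mrpl30 (189, 190 and 174 TPM) and Mrps21 (186, 149 and 166 TPM) followed. In each of these 5 genes except Mrpl30 the young TRM value was the lowest. At the other end stood Mrpl17, with 12.1, 10.6 and 11.6 TPM, then Mrpl19 (20.7, 16.7 and 20.0 TPM) and Mrpl57 (22.9, 17.6 and 20.9 TPM). Mrpl41 had 23.5, 26.1 and 28.4 TPM and Mrpl35 had 24.0, 15.4 and 20.0 TPM. These 5 low genes all encode large-subunit proteins, as does Mrpl18, so proteins of the same particle had transcripts at both ends of the range. The order of neighbours depends on the transcript lengths behind TPM, which the sources used here do not give.

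The genes are scattered over the genome. RefSeq on mouse assembly GRCm38.p6 places all 78 and lists all as protein coding. Chromosome 11 holds 11 of them, 14.1% against 8.02% of the genes of the table. In the GENCODE M21 annotation, 18 of the 78 (23.1%) have another protein-coding gene that starts within 1000 bases on the opposite strand and reads away without overlap of the starts, as have 1230 of 11477 tested genes (10.7%). Pairs with overlapping starts, such as the members Mrpl46 and Mrps11, are not in this count. Mrps18b, for example, starts 45 bases from Ppp1r10, Mrpl49 starts 59 bases from Fau, Mrpl30 starts 66 bases from Mitd1 and Mrps12 starts 172 bases from Sars2. Start-site sequences were available for 69 members, from 250 bases before to 50 bases after the start, and were searched on both strands for letters that known regulators of mitochondrial genes bind. These members had 75 such sequences, and a gene was counted once if any of its sequences matched. The letters CCGGAAG, the core bound by ETS factors such as GABP, occurred in 26 of the 69 (37.7%). They occurred in 2002 of 9514 tested genes (21%) and in 2683 of all 27025 genes with a sequence (9.93%). A longer palindrome bound by NRF1 (nuclear respiratory factor 1), capitalized in the first sequences below, occurred in 3 (4.35%, against 2.43% of tested genes and 1.07% of all), and the YY1 motif, capitalized in the sequence of Mrps11 below, in 5 (7.25%, against 1.87% and 0.755%). In 4 of these 5 it begins 12 to 27 bases after the start site, and in Mrps11 it begins 110 bases before it. The E-box CACGTG that MYC binds occurred in 5 (7.25%, against 11.8% and 8.09%), and TATAAA also in 5 (7.25%, against 8.39% and 15.7%). Mrps18a and Mrps27 hold both the ETS and the YY1 letters. A match is a description of the sequence only, not evidence of binding.

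The stretches below are shown because they hold the NRF1 letters in all 3 members that have them, the YY1 letters in the 1 member that has them before its start, and the ETS letters in members whose transcripts differed in different ways between the samples. They are RefSeq sequences of GRCm38.p6, written 5′ to 3′ on the strand of the gene and ending before a start site. The matched letters are in capitals (CTTCCGG is CCGGAAG on the other strand, and in Mrps11 the motif also lies on the other strand). A start site whose sequence held the letters was used, which was not always the outermost start of the gene. The stretches of Mrpl9, Mrpl22 and Mrps16 lie within the span that RefSeq gives the gene, and that of Mrps27 reaches into it. That of Mrps11 lies within the span of Mrpl46, a member that reads the other way. NRF1 letters: Mrpl9 at chr3:94443283-94443335 on the plus strand, Mrpl32 at chr13:14613090-14613149 and Mrpl39 at chr16:84735335-84735394, both on the minus strand. YY1 letters: Mrps11 at chr7:78782996-78783055 on the plus strand. ETS letters: Mrpl22 at chr11:58171586-58171645, Mrps27 at chr13:99344713-99344772 and Mrpl34 at chr8:71464864-71464923, all on the plus strand, and Mrpl43 at chr19:45006444-45006503 and Mrps16 at chr14:20393530-20393589, both on the minus strand.
Mrpl9: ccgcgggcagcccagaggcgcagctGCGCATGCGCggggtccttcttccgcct
Mrpl32: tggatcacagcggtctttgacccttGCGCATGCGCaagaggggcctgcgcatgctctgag
Mrpl39: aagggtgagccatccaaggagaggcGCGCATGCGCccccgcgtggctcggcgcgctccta
Mrps11: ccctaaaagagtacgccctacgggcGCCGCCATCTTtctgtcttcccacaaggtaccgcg
Mrpl22: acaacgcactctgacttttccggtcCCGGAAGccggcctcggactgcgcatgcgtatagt
Mrps27: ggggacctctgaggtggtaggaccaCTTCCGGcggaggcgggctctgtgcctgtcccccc
Mrpl34: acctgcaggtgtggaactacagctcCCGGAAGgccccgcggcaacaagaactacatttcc
Mrpl43: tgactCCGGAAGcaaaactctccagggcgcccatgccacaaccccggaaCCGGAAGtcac
Mrps16: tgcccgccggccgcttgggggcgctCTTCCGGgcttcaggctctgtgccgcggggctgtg

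The first comparison, young TRM against young TCR, shows the young cells with and without IL-15 and TGF-beta. Nearly the whole family was somewhat lower in young TRM. The 78 genes summed to 3509 CPM in young TCR (columns 3553 and 3465) and to 2910 CPM in young TRM (columns 2932 and 2891), and the columns of the samples did not overlap. The median log2 ratio of the members was -0.29, a fold of 0.820, beside 0.01 over all genes compared. Of the 78 members, 69 lay below 0, where 48.2% of all genes lay, and 9 lay above 0, where 51.8% lay. All 4 pairings of a young TRM column with a young TCR column gave a similar median, between -0.33 and -0.23, with 66 to 70 members below 0.

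Large and small subunits did not part ways. The 51 large-subunit genes summed to 2348 CPM in young TCR (columns 2386 and 2309) and 1953 CPM in young TRM (columns 1965 and 1943), with a median log2 ratio of -0.29. For the 26 small-subunit genes the sums were 1124 CPM (columns 1129 and 1119) and 928 CPM (columns 938 and 920), and the median was -0.27. Genes with a bacterial counterpart (median -0.29) and those counted as specific to mitochondria (median -0.26) had similar medians.

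**Figure D2:**
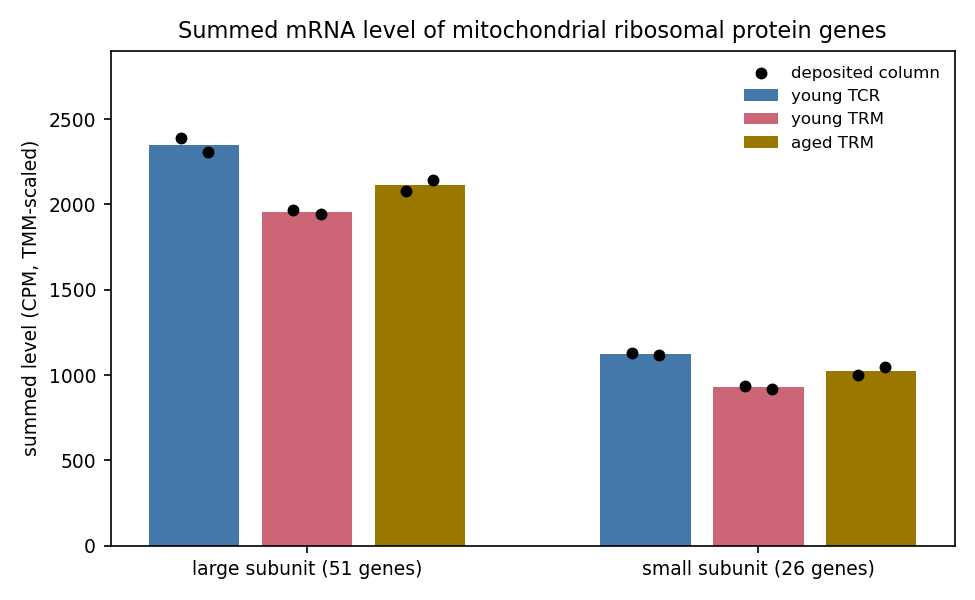
Summed level (CPM, TMM-scaled) of the 51 large-subunit and 26 small-subunit genes, with bars for the samples and points for their 2 deposited columns. In both subunits young TCR is highest (2348 and 1124 CPM), young TRM lowest (1953 and 928 CPM) and aged TRM between them (2112 and 1026 CPM).

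The differences were small for each gene. No member differed by 2-fold, by the rule that the log2 ratio of CPM + 1 is at least 1 in size and the 95% counting interval excludes 1, whereas 4.11% of all genes were higher and 3.54% lower by that rule. A gene is called shifted here where the log2 ratio of CPM + 1 was at least 0.322 in size and both columns of 1 sample lay beyond both columns of the other. By this rule 34 of the 78 members (43.6%) were shifted lower in young TRM, against 18.1% of all genes, and 0 were shifted higher, against 18.9% of all genes. The shifted genes were 22 of 51 in the large subunit and 11 of 26 in the small subunit, together with Mrps36. Leaving size aside, the columns were apart in the lower direction for 63 members (37.3% of all genes) and in the higher direction for 6 (41.2% of all genes). The members were more alike than genes at large, with log2 ratios from -0.85 to 0.25 and an SD of 0.24 across genes, beside 0.61 over all genes. Just inside the limit of 0.322 were Mrpl47 (-0.328) and Mrpl39 (-0.329), and just outside it Mrpl33 (-0.318) and Mrps21 (-0.317).

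**Figure D3:**
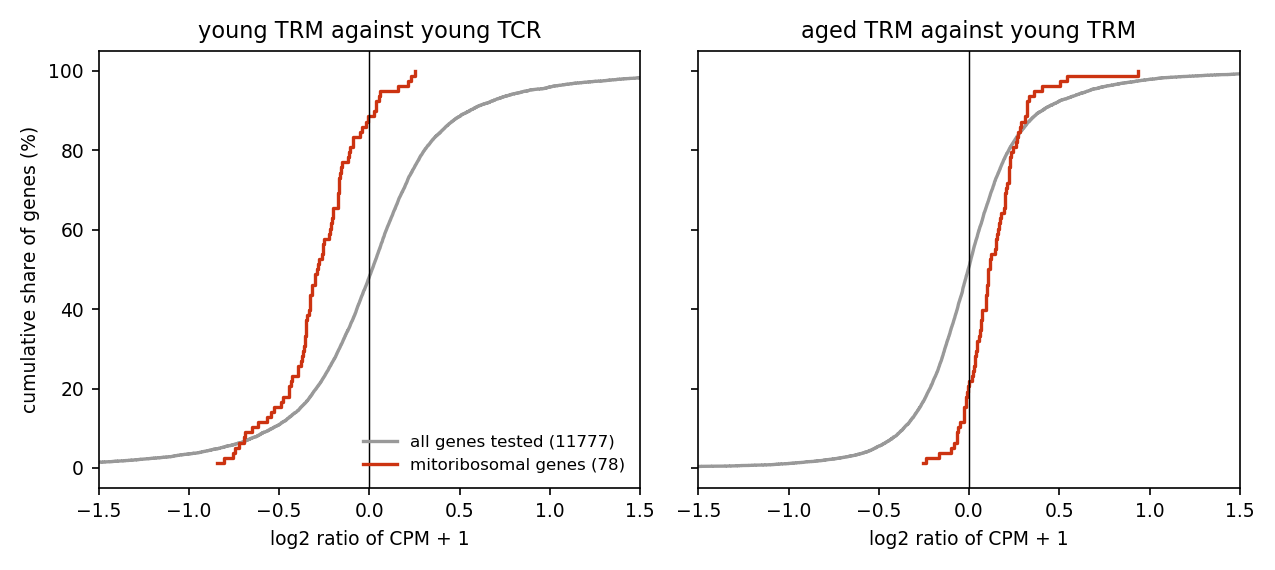
Cumulative share of genes (%) by log2 ratio of CPM + 1, for the 78 mitoribosomal genes and all 11777 genes compared, in young TRM against young TCR (left) and aged TRM against young TRM (right). The members' curve lies left of that of all genes on the left (medians -0.29 and 0.01) and right of it over most of its length on the right (median 0.11), and is steeper in both.

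In the small subunit, Mrps6, the counterpart of bacterial protein S6, had the lowest log2 ratio of all members. Its columns stood at 56.4 and 55.8 CPM in young TCR, 31.4 and 30.3 CPM in young TRM and 57.5 and 61.8 CPM in aged TRM. Young TRM was thus the low sample, 1.82-fold below young TCR (95% counting interval 1.70 to 1.96, log2 ratio -0.85), while aged TRM and young TCR were close. Mrps6 (gene ID 121022) lies at chromosome 16, 92058336 to 92112227, on the plus strand of GRCm38.p6. In the GENCODE M21 annotation 159 of its 1533 exon bases (10.4%) are shared with Slc5a3, a myo-inositol transporter gene on the same strand, and 305 with Gm49711, which the table does not list. Slc5a3 itself had 54.8, 31.1 and 55.7 CPM in young TCR, young TRM and aged TRM, a log2 ratio of -0.80. Both genes were thus lowest in young TRM, and the sources used here do not say how reads over the shared bases were assigned.

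Mrps28, the member with the lowest CPM in young TRM though not the lowest TPM, had columns of 16.1 and 15.1 CPM in young TCR and of 8.52 and 9.13 CPM in young TRM. This was a 1.76-fold lower level (1.54 to 2.03, log2 ratio -0.75). Mrps18b, 1 of 3 mammalian relatives of bacterial S18, had 45.3 and 43.3 CPM in young TCR and 26.8 and 25.5 CPM in young TRM, 1.70-fold lower (1.57 to 1.84, log2 ratio -0.74). Its relatives moved less. Mrps18c, also of the small subunit, had 45.4 CPM in young TCR and 37.7 CPM in young TRM (log2 ratio -0.26), and the columns of young TRM, at 42.7 and 33.7 CPM, were the farthest apart of any member in that sample. Mrps18a, whose protein sits in the large subunit, had 26 and 22.5 CPM (log2 ratio -0.20). So only Mrps18b of these 3 relatives was shifted, though the differences between them were not tested. Mrps27, a pentatricopeptide repeat protein that binds RNA, had 37.3 and 23.4 CPM (log2 ratio -0.65), and Mrps10 had 33.8 and 22.5 CPM (log2 ratio -0.56). Both were shifted lower. Mrps12 and Mrps5, whose bacterial counterparts set the accuracy of decoding, were shifted lower at log2 ratios of -0.44 and -0.49. Mrps7, a protein of the head of the small subunit, was shifted lower as well, from 54.6 to 41.7 CPM.

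In the large subunit, Mrpl38 had the lowest ratio, with columns of 35.8 and 30.4 CPM in young TCR and of 18.4 and 18.7 CPM in young TRM (1.78-fold lower, 1.62 to 1.96, log2 ratio -0.80). It is a mitochondria-specific protein of the central protuberance. Mrpl45, through which the large subunit is held at the inner membrane, had 89.98 and 87.3 CPM against 52.1 and 54.4 CPM (1.66-fold lower, 1.57 to 1.76, log2 ratio -0.72). Mrpl1, the counterpart of the protein of the L1 stalk beside the site where transfer RNA leaves, had 48.3 and 46.8 CPM against 30.5 and 27.7 CPM (1.64-fold lower, 1.52 to 1.77, log2 ratio -0.70). In each of these 3 genes the columns of the samples lay well apart.

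Proteins that work side by side in the large subunit had transcripts that differed. Around the exit of the peptide tunnel, Mrpl22 was shifted lower, from 24.6 to 14.9 CPM (log2 ratio -0.69), whereas Mrpl23 had 26.6 and 27.7 CPM (log2 ratio 0.06) and Mrpl24 had 81.7 and 80.7 CPM (log2 ratio -0.02). In the stalk where translation factors dock, Mrpl11 was shifted lower from 38.4 to 28.0 CPM (log2 ratio -0.44) and Mrpl12 from 79.6 to 60.3 CPM (log2 ratio -0.39, columns 77.7 and 81.4 against 59.2 and 61.2 CPM). Mrpl10, which anchors that stalk, instead had 63.6 and 59.5 CPM in young TCR and 75 and 68.7 CPM in young TRM, a higher level (1.16-fold, 1.1 to 1.23, log2 ratio 0.21) that did not reach the limit. Mrps30, a large-subunit protein, was shifted lower from 49.97 to 39.1 CPM, and Mrps36, of the 2-oxoglutarate dehydrogenase complex, from 36.8 to 28.7 CPM (both log2 ratios -0.35).

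Members with the highest ratios stayed close to 1. Mrpl14, which lies at the face where the subunits meet, had 17.9 and 17.5 CPM in young TCR and 21.9 and 20.9 CPM in young TRM (1.20-fold, 1.09 to 1.33, log2 ratio 0.25). It shares 106 exon bases, 11.2% of its own, with Tmem63b on the opposite strand, which had a log2 ratio of 0.26. Mrps16 had 48.3 and 48.6 CPM against 58.6 and 55.5 CPM (log2 ratio 0.23), and Mrpl41 had 28.7 and 32.2 CPM (log2 ratio 0.16). Mrps34 had 35.1 and 36.5 CPM (log2 ratio 0.05). None of the 9 members above 0 was shifted.

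**Figure D4:**
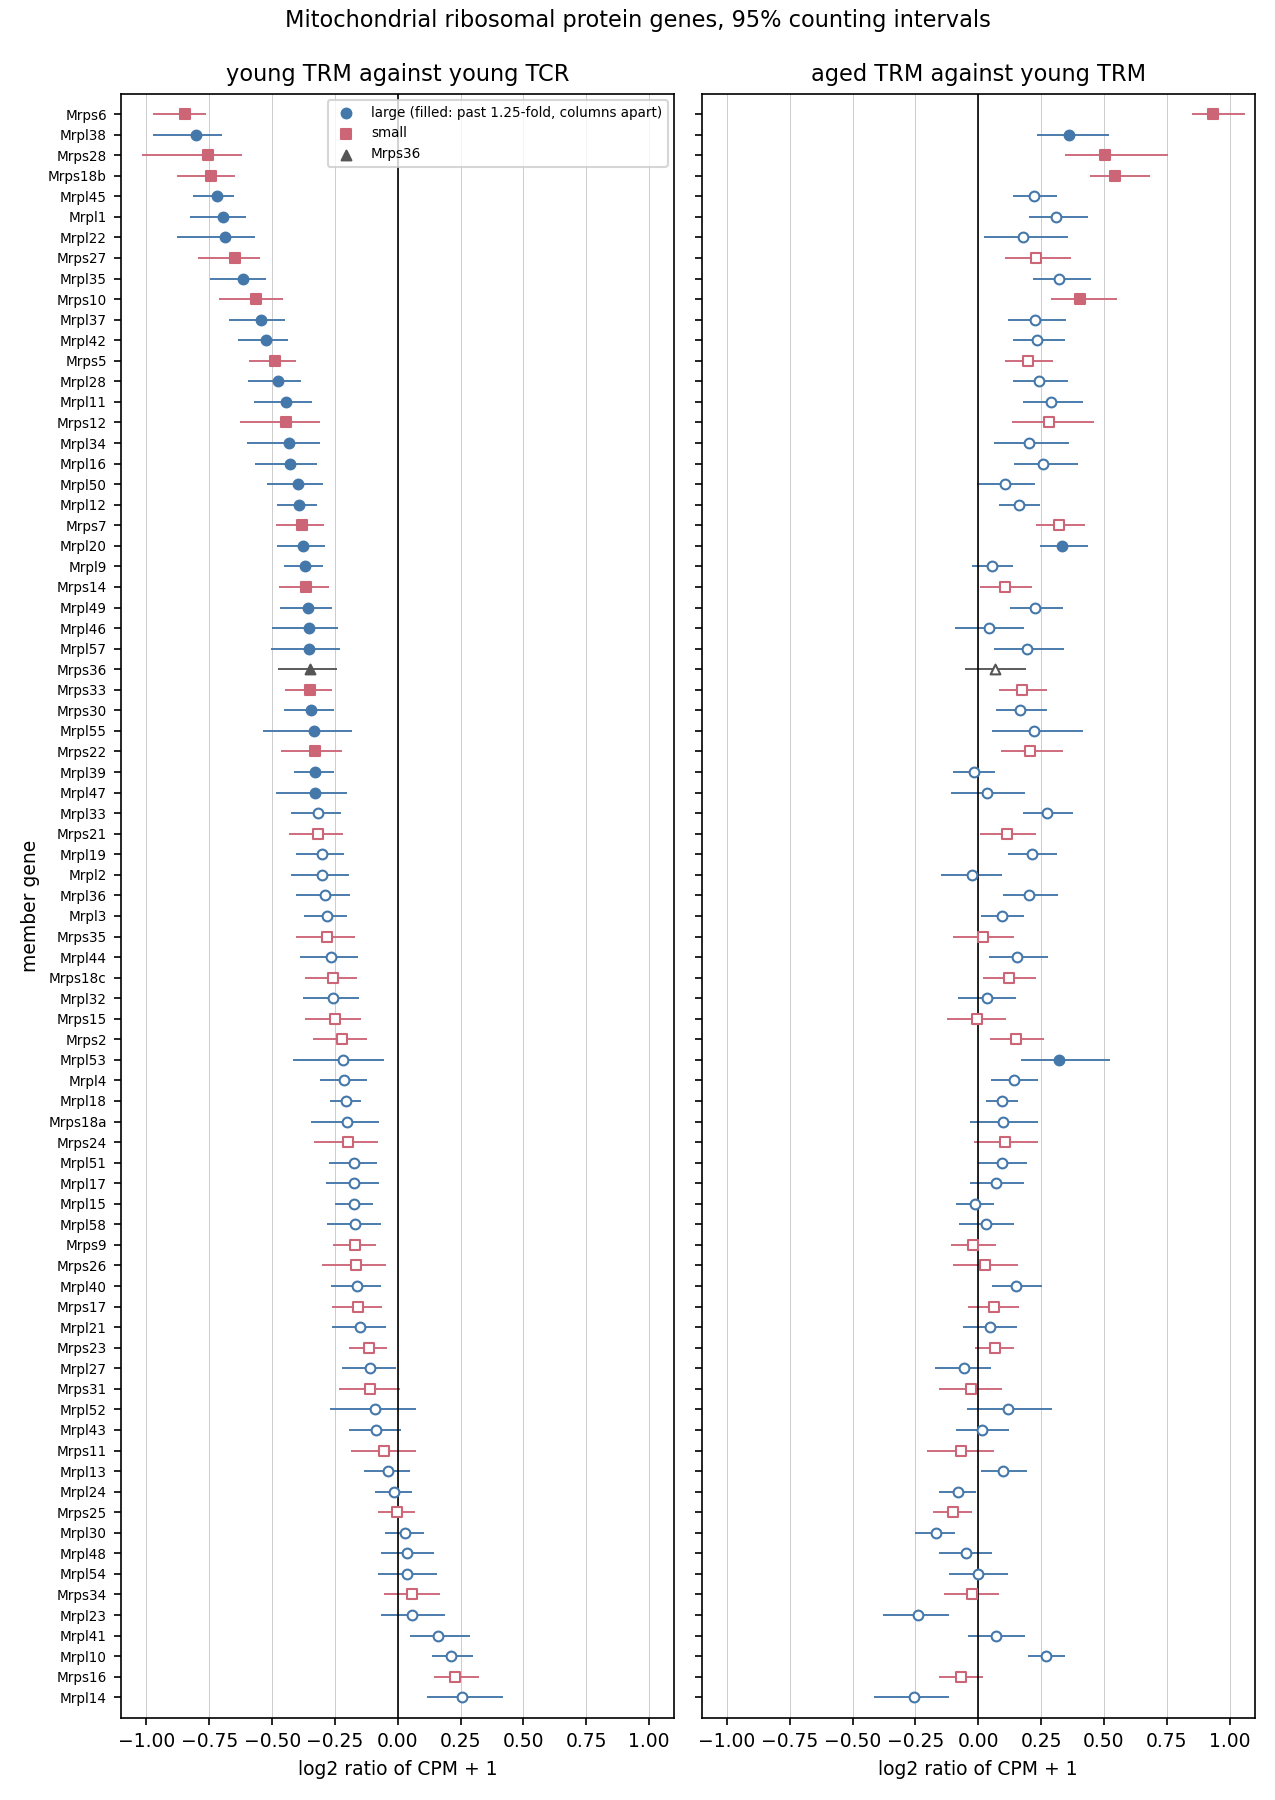
Log2 ratio of CPM + 1 for each of the 78 genes, ordered by young TRM against young TCR (left), with the same order for aged TRM against young TRM (right). Bars are 95% counting intervals and filled symbols mark shifted genes (34 lower on the left, 7 higher on the right), and both panels share the young TRM sample.

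Members with and without given start-site letters were found on both sides of the limit, and differences between them were not tested. The 26 members with ETS letters had a median log2 ratio of -0.21 and 8 of them were shifted lower, and the 43 without had a median of -0.34 with 24 shifted lower. Of all genes compared, 18.1% were shifted lower, and that share was not split by start-site letters. Of the genes whose ETS stretches are printed above, Mrpl22, Mrps27 and Mrpl34 were shifted lower, while Mrpl43 stood at -0.09 and Mrps16 at 0.23. Of those with NRF1 letters, Mrpl9 (82.0 and 63.2 CPM) and Mrpl39 (78.9 and 62.6 CPM) were shifted lower, and Mrpl32 (38.4 and 32.0 CPM) was not. Of the 5 with YY1 letters, 3 were shifted lower (Mrpl35, Mrpl37 and Mrps27), with a median of -0.54 over the 5 and of -0.30 over the 64 without. Genes sharing a start region could also differ. Mrpl49 was shifted lower at -0.36 while Fau, a cytosolic ribosomal protein gene 59 bases away, had 588 and 698 CPM (log2 ratio 0.25). Mrps18b and Ppp1r10 were both lower, the latter at 92.6 and 74.6 CPM (log2 ratio -0.31).

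The second comparison, aged TRM against young TRM, shows cells of the 2 ages under the same antibodies and cytokines. It shares the young TRM sample with the first, so a value particular to that sample enters both with opposite sign. Most members were slightly higher in aged TRM. The 78 genes summed to 2910 CPM in young TRM and 3168 CPM in aged TRM (columns 3110 and 3225). The median log2 ratio was 0.11, a fold of 1.08, beside 0.00 over all genes. Of the 78, 62 lay above 0, against 49.4% of all genes, and 16 lay below 0, against 50.6%. This difference was not much larger than the spread between columns. In aged TRM 58 of 78 members were higher in column 2 than in column 1, by a median log2 difference of 0.06, and the 4 pairings of columns gave medians from 0.06 to 0.17, with 55 to 65 members above 0.

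By the 2-fold rule no member differed, where 2.21% of all genes were higher and 1.13% lower. Of the 78, 7 members (8.97%) were shifted higher, against 13.1% of all genes, and 0 were shifted lower, against 11.9%. All 78 members reached 10 CPM in at least 1 of the 3 samples, and of all such genes 9.16% were shifted higher. The members' share was thus below that of all genes in CPM but close to that of genes at this level. With the authors' TPM the share shifted higher was 16.7% against 15.02%. Columns were apart in the higher direction for 48 members (36% of all genes) and in the lower direction for 7 (37.7% of all genes). Log2 ratios ran from -0.25 to 0.93 with an SD of 0.18 across members, beside 0.41 over all genes. The large-subunit genes summed to 2112 CPM in aged TRM (columns 2078 and 2145, median log2 ratio 0.12) and the small-subunit genes to 1026 CPM (columns 1002 and 1050, median 0.11).

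Mrps6 had by far the largest ratio. Its 30.8 CPM in young TRM and 59.7 CPM in aged TRM were 1.94-fold apart (1.80 to 2.09, log2 ratio 0.93), and Slc5a3, with which it shares exon bases, had a log2 ratio of 0.82. Mrps18b had 26.8 and 25.5 CPM in young TRM and 35.8 and 41.2 CPM in aged TRM, 1.48-fold higher (1.36 to 1.6, log2 ratio 0.55). Mrps28 had 12.8 and 13.1 CPM in aged TRM, 1.46-fold higher than young TRM (1.27 to 1.69, log2 ratio 0.50). Mrps10 had 21.1 and 23.6 CPM against 28.9 and 31.4 CPM (1.34-fold, 1.22 to 1.46, log2 ratio 0.40). These 4 genes, all of the small subunit, had the largest ratios in this comparison, and the other 22 small-subunit genes were not shifted. In the large subunit Mrpl38 was shifted from 18.6 to 24.1 CPM (log2 ratio 0.36), Mrpl20 from 42.0 to 53.2 CPM (log2 ratio 0.33) and Mrpl53 from 12.5 to 15.9 CPM (log2 ratio 0.32). Mrpl53, at 0.3226, lay just inside the limit of 0.3219. Mrpl35 (0.3218) and Mrps7 (0.3200), whose columns were also apart, lay just outside it. Of the 790 exon bases of Mrpl53, 695 are also annotated to Gm42688 on the same strand, which the table does not list.

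Among the genes that lay lower in aged TRM, none was shifted. Mrpl14 had 17.6 and 17.9 CPM in aged TRM against 21.9 and 20.9 CPM in young TRM (log2 ratio -0.25), close to its level in young TCR (17.9 and 17.5 CPM). Mrpl23, of the tunnel exit, had 27.7 and 23.3 CPM (log2 ratio -0.24), and Mrpl30 had 71.2 and 63.2 CPM (log2 ratio -0.17). Mrps25, Mrpl24 and Mrps11 had log2 ratios of -0.10, -0.08 and -0.07. Mrpl10, the anchor of the stalk, had 89.1 and 83.6 CPM in aged TRM, 1.21-fold above young TRM (1.15 to 1.27, log2 ratio 0.27) and the highest of the 3 samples. The other proteins of that stalk, Mrpl11 and Mrpl12, had log2 ratios of 0.29 and 0.16. Mrps18a, Mrps18c and Mrps30 had log2 ratios of 0.10, 0.12 and 0.17, and Mrps36 had 0.07, but column 1 of each sample alone put Mrps18c at -0.12. None of these was shifted.

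Between aged TRM and young TCR both age and cytokines differ, so their values are only set side by side. The members' median log2 ratio of aged TRM to young TCR was -0.14, beside 0.01 over all genes. Of the members 69 lay below 0, where 49.1% of all genes lay, and 9 lay above. Mrpl10 had the highest value, with 86.3 CPM in aged TRM and 61.5 CPM in young TCR (log2 ratio 0.48). Mrpl22 (17.0 and 24.6 CPM, -0.51) and Mrpl45 (62.4 and 88.6 CPM, -0.50) had the lowest values. The order of the summed level, young TCR above aged TRM above young TRM, also held in TPM, where the 78 genes summed to 6464, 6035 and 5374.

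The rest of the machinery that expresses the mitochondrial genome was taken from 7 lists. Mitochondrially encoded genes themselves are not listed in the table, so the messages that mitoribosomes translate were not analysed here. In young TRM against young TCR, 6 of the lists had medians below 0, and the list of regulators of mitochondrial biogenesis had a median above 0. The list of mitoribosomal proteins under other symbols went the same way as the members. It also holds Oxa1l, which docks at the mitoribosome but is not part of it. Of the 6 genes 4 were shifted lower (66.7%, against 18.1% of all genes), and the median of the 6 was -0.38. Dap3, a GTP-binding protein of the small subunit, had 113 and 104 CPM in young TCR and 70.2 and 65.8 CPM in young TRM (log2 ratio -0.67). Ptcd3, an RNA-binding protein of the small subunit, had 105 and 75 CPM (log2 ratio -0.48), and Gadd45gip1, of the large subunit, had 42.8 and 31.6 CPM (log2 ratio -0.43). Chchd1 was shifted at -0.33. Aurkaip1 (-0.18) and Oxa1l (-0.15), the latter an inner-membrane insertase that docks at the tunnel exit, were not shifted.

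Of 27 factors that assemble the mitoribosome, 8 were shifted lower (29.6%, against 18.1% of all genes) and 1 higher (3.70%, against 18.9%). Their median was -0.13. Fastkd2, which binds the large ribosomal RNA, was shifted lower from 38.2 to 19.8 CPM (log2 ratio -0.92), and Rbfa, of the small subunit's assembly, from 28.5 to 19.4 CPM (-0.54). Nsun4, an RNA methyltransferase needed to join the subunits, was the gene shifted higher, from 19.0 to 34.9 CPM (0.84). Of 15 translation factors 7 were shifted lower (46.7%, against 18.1% of all genes), with a median of -0.20. Tufm, the elongation factor that brings transfer RNA to the mitoribosome, went from 137 to 82.3 CPM (-0.73), Gfm1, the translocation factor, from 69.8 to 49.8 CPM (-0.48), and Tsfm, the partner of Tufm, from 32.6 to 23.1 CPM (-0.48). Of the 20 genes on the list of aminoacyl-tRNA synthetases, the enzymes that load transfer RNAs, 6 were shifted lower (30%, against 18.1% of all genes). Their list had a median of -0.18. Gatb, a subunit of the amidotransferase that makes glutaminyl-tRNA, went from 18.3 to 9.48 CPM (-0.88), Lars2 from 30.4 to 19.0 CPM (-0.66) and Yars2 from 24.5 to 15.3 CPM (-0.65).

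Of 30 genes of mitochondrial transcription and RNA processing, 9 were shifted lower (30%, against 18.1% of all genes), with a median of -0.22. These included Fastkd3 (26 and 15.6 CPM, -0.70), Hsd17b10, a subunit of mitochondrial RNase P (-0.53), and Pnpt1, an exonuclease of RNA decay (-0.51). Among 30 genes of protein import and quality control 17 were shifted lower (56.7%, against 18.1% of all genes), with a median of -0.34. Hspd1, the chaperonin HSP60, had 992 and 996 CPM in young TCR and 482 and 485 CPM in young TRM, and with a log2 ratio of -1.04 it was the only gene of the 7 lists past the 2-fold rule in either comparison. Tomm40, the channel of the outer membrane, went from 89.2 to 55.2 CPM (-0.68) and Tomm5, a small subunit of the same complex, from 65.3 to 42.1 CPM (-0.62).

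Regulators of mitochondrial biogenesis had values on both sides of 0. Of 12 on the list 10 were expressed, with a median of 0.07. None was shifted lower (18.1% of all genes were) and 1 was shifted higher (10%, against 18.9% of all genes). Nfe2l2, a transcription factor of the oxidative stress response, had 28.5 and 57.6 CPM (log2 ratio 0.99), Myc had 257 and 311 CPM (0.27) and Ppargc1b, a coactivator, had 10.4 and 12.8 CPM (0.27). Myc is also a factor whose letters were searched at the start sites. Of the others, Nrf1 had 64.7 and 66.1 CPM (log2 ratio 0.03) and Gabpa had 124 and 126 CPM (0.03). Yy1 had 198 and 170 CPM (-0.22), with its columns apart in the lower direction, and was not shifted. Ppargc1a, another coactivator, stayed under 0.1 CPM in every sample.

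**Figure D5:**
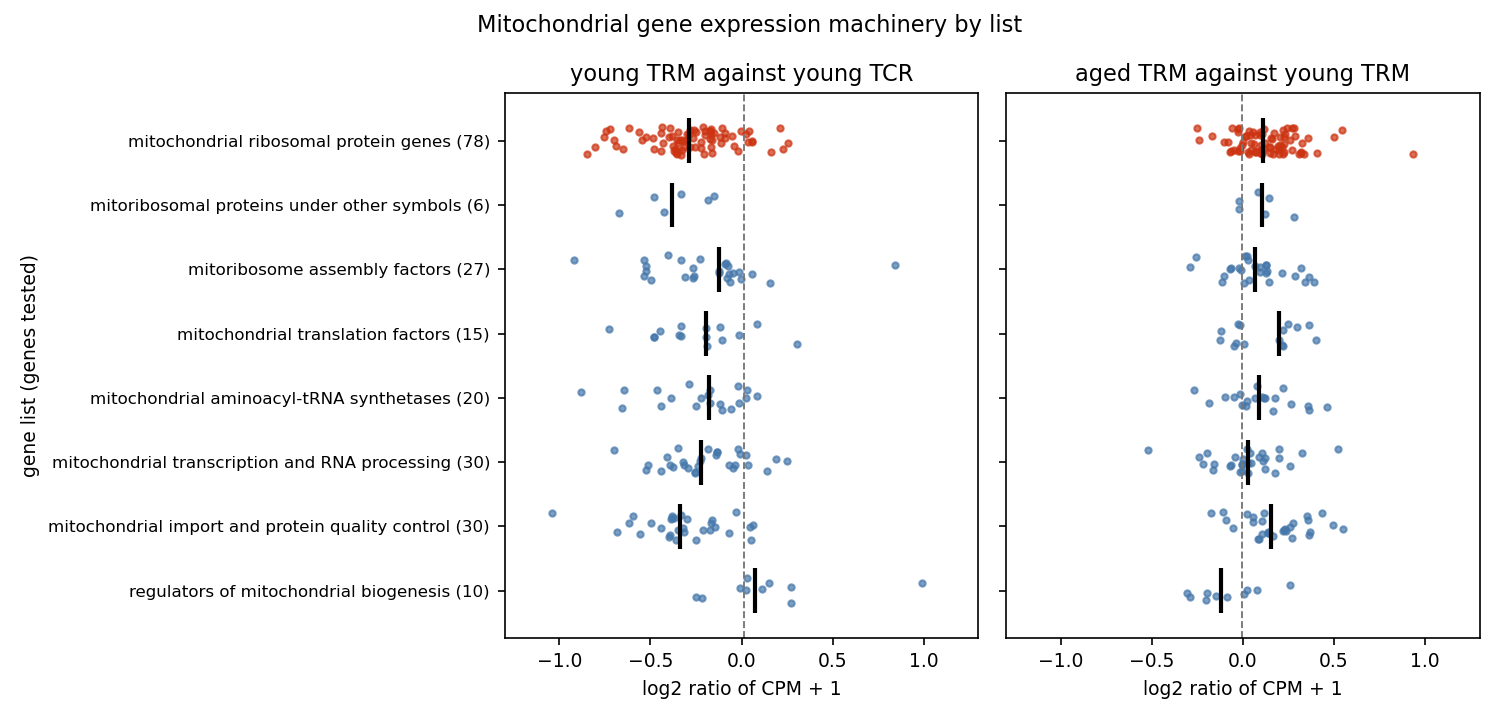
Log2 ratio of CPM + 1 of each gene (points) in the mitoribosomal family and 7 lists of mitochondrial gene expression, with a bar at each median and a dashed line at the median of all genes. On the left the medians of all lists but the regulators (0.07) lie below 0, and on the right all but the regulators (-0.12) lie above 0.

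In aged TRM against young TRM the lists had medians between -0.12 and 0.20. For the shares below, 13.1% of all genes were shifted higher and 11.9% lower. The median was 0.10 for the list of mitoribosomal proteins under other symbols, with 0 of 6 shifted, and 0.06 for the assembly factors. Among the assembly factors 3 of 27 (11.1%) were shifted higher (Noa1, Fastkd2 and Malsu1, at 0.39, 0.36 and 0.34). The translation factors had a median of 0.20, with Tufm (82.3 and 109 CPM, 0.40) and Gfm1 (49.8 and 64.3 CPM, 0.36) shifted higher (13.3%). Lrpprc, a protein that stabilizes mitochondrial messages, stood at 0.30 and was not shifted. Of the aminoacyl-tRNA synthetases Gatb (0.46), Yars2 (0.37) and Mars2 (0.36) were shifted higher (15%), and the median was 0.09. In transcription and RNA processing Fastkd3 (0.52) and Elac2 (0.33) were shifted higher and Mterf1b lower (12.8 and 8.63 CPM, -0.52), with a median of 0.03. These were 6.67% and 3.33% of that list. Mterf1b encodes a mitochondrial transcription termination factor and has a close copy in the mouse, Mterf1a, so its count is uncertain. Of the import and quality control genes 7 of 30 (23.3%) were shifted higher, with a median of 0.15. Hspd1 (484 and 709 CPM, 0.55), Timm17a (43.5 and 61.8 CPM, 0.50) and Tomm40 (55.2 and 75 CPM, 0.43) led them. No regulator was shifted, and Myc (-0.31), Ppargc1b (-0.29) and Pprc1 (0.26) were the farthest from 0.

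Cytosolic ribosomal proteins and the respiratory chain give a frame for these values. The 81 expressed genes of the cytosolic ribosome summed to 82246, 84509 and 73125 CPM in young TCR, young TRM and aged TRM. Their median was 0.01 in the first comparison, with 4 shifted lower and 4 higher (4.94% each, against 18.1% and 18.9% of all genes). In the second it was -0.23, with 14 shifted lower (17.3%, against 11.9% of all genes) and 0 higher (against 13.1%). The mitoribosomal genes, at -0.29 and 0.11, thus had other medians than the cytosolic ones in both comparisons, a difference that was not tested. The 81 nuclear-encoded subunits of the respiratory chain summed to 10172, 8975 and 9590 CPM, with medians of -0.13 and 0.05. Their sums had the order of the mitoribosomal genes, with young TRM lowest. In the first comparison 12 were shifted lower (14.8%, against 18.1% of all genes) and 4 higher (4.94%, against 18.9%). In the second 4 were shifted higher (4.94%, against 13.1%) and 3 lower (3.70%, against 11.9%).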

How the data were processed

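RNA levels of 3 samples, 1 per group, were used. Per the labels, total RNA was cleaned on a column kit and sequenced on a HiSeq instrument with standard Illumina libraries. Bowtie (no version stated) and the builds GRCm38 and mm10 are named per the submitters' processing notes. For the counting program, the gene annotation, strandedness and reads that fit several genes, the sources used here say nothing. The deposited table gave, per gene and column, an estimated count of reads, not always whole, and the authors' TPM, a level per transcript length. A further 24 value columns were not used.

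Counts were rounded and added over the 2 columns of each sample. CPM used TMM factors of edgeR 4.0.16 in R 4.3.3 (1.02, 0.978 and 1.01), and each column its sample's factor. Log2 ratios, and the folds given for the family's medians, hold a pseudocount of 1 CPM, and folds of single genes do not, so log2 ratios understate differences of low genes. Intervals are 95% Clopper-Pearson intervals of the split of reads between samples. They cover counting error only, since reads are not independent molecules. DESeq2 1.42.0 gave alternative size factors. Other steps ran in Python 3.11.15 (scipy 1.17.1, pandas 2.3.3, numpy 2.4.6), and the rules were tested on simulated data. RefSeq (GRCm38.p6) gave positions and start-site sequences, and GENCODE M21 exon overlaps.

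The members and gene lists were chosen with earlier results of these data known. Named by rule were, per comparison, members past 2-fold, the 6 highest and 6 lowest members of at least 10 CPM, the 5 highest and 5 lowest by TPM, Mrps18a, Mrps18b, Mrps18c, Mrpl12, Mrps30 and Mrps36, and up to 3 genes per list. Other members were named for their role, position or start-site letters, or to complete a count, after their values were seen, as were neighbouring genes and Chchd1, Aurkaip1, Oxa1l, Nrf1, Gabpa, Yy1, Ppargc1a and Slc5a3.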

Additional observations from a re-analysis of the deposited data

How the results depend on the processing

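The first comparison kept its direction under every setting run, with medians from -0.34 (scaling by library totals only) to -0.26 (pseudocount of 5 CPM). The count of members shifted lower stayed within 1.5 times of 34, with 26 at a pseudocount of 5 CPM (13.3% of all genes), 36 with DESeq2 size factors (18.7%), 37 with the authors' TPM (18.48%) and 41 with library totals (21.3%). The second comparison depended more on the settings. Its median was 0.056 with column 1 of each sample alone and 0.168 with column 2 alone. Members below 0 were 9 with library totals and 7 with TPM, instead of 16, and members shifted higher were 11 with library totals (15.2% of all genes), 13 with TPM (15.02%) and 4 with a pseudocount of 5 CPM (8.01%), instead of 7. As a share of the 78, the 13 with TPM were above all genes. The 7 in CPM were below all genes but close to the 9.16% of genes that reached 10 CPM in 1 of the 3 samples. No member passed 2-fold under any setting that gave this count, and single columns gave none because the rules need both. Of 598 values of the members named by rule under the alternatives, 581 stayed within the counting interval and 8 had the other sign. In the first comparison these were Mrpl30, Mrpl24 and Mrps25, and in the second Mrps34, Mrps21 and Mrps18c, the latter at -0.12 with column 1 alone instead of 0.12. Members not named by rule were left out of this count. Some of them also changed sign in the second comparison, as the lower counts of members below 0 with library totals and TPM show. The cause of these changes was not tested. No paired analysis was possible because each group was 1 sample. Reads that may be shared with pseudogenes (Mrpl23, Mrpl27, Mrpl48 and Mrps36 have named ones) limit those genes.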

Other observations

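For some members reads of another gene could enter the count, since 33 of the 78 share exon bases with another annotated gene and 23 with a protein-coding one. Nr2c2, a nuclear receptor gene on the opposite strand, covers 69.8% of the exon bases of Mrps25, and had 92.6, 128 and 107 CPM in young TCR, young TRM and aged TRM where Mrps25 had 76.0, 75.7 and 70.5 CPM. Mapk8ip3 covers 63.4% of the exon bases of Mrps34 from the opposite strand, with 105, 106 and 98.5 CPM where Mrps34 had 35.1, 36.5 and 35.8 CPM. Gcfc2 covers 36% of Mrpl19, and Twnk, the mitochondrial DNA helicase gene, covers 33.4% of Mrpl43, both from the opposite strand. Mrpl46 and Mrps11, a large-subunit and a small-subunit gene that read in opposite directions from overlapping start regions on chromosome 7, share 173 exon bases. Mrpl46 was shifted lower in young TRM against young TCR (29.2 and 22.6 CPM) and Mrps11 was not (26.1 and 25.1 CPM). Whether such reads were counted for either gene cannot be told from the table, and their part in the members' values was not tested.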
